A study of Mus musculus with 4 samples.

Results

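Chemokines and their receptors were followed in full-thickness mouse skin, before and 2 days after punch wounding, with and without the leukotriene receptor BLT2. The members were all genes whose symbol begins with Ccl, Cxcl, Ccr, Cxcr or Ackr and a digit, together with Cx3cl1, Cx3cr1, Xcl1, Xcr1, Pf4 and Ppbp. This gave 60 of the 19057 genes named on the array, 38 of them ligands and 22 receptors, read by 89 probes. Membership was set by names only and by no measured value, but the choice was made with earlier results of these data known.

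The study compared 4 groups of mice of the C57Black6/J background: wild-type unwounded skin (WT), unwounded skin deficient in BLT2 (BLT2KO), and skin of each genotype at 2 days after punching (WT_punched and BLT2KO_punched). RNA came from biopsies 5 mm in diameter and was mixed from 3 mice per group before labelling, so each group was 1 array of 1 pool. The spread between mice was not measured, no comparison has a replicate check, and none was tested. How the deletion was made and the age and sex of the mice are not given in the sources used here. No probe was named for Ltb4r2, the gene of BLT2, so the deletion itself was not analysed here.

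Chemokines are small secreted proteins that bind to matrix and endothelium and guide leukocytes that carry the matching G protein-coupled receptor. Inflammatory chemokines such as the CXCR2 ligands and the CCR1 and CCR2 ligands are made on demand by keratinocytes, macrophages, neutrophils and stromal cells and recruit neutrophils and monocytes into wounds. Homeostatic chemokines such as CCL27, CCL21 and CXCL12 are made constantly by epidermis, lymphatic vessels and fibroblasts. Atypical receptors bind chemokines without G protein signalling and remove or transport them.

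Values are normalised probe intensities on the log2 scale, and a gene was called detected on an array at a detection p-value under 0.01, the chance that a negative control probe is as bright. By this limit 36.2% to 38.0% of all probes were detected per array. Keratinocyte markers Krt5, Krt14, Krt10 and Lor and fibroblast markers Col1a1 and Dcn were detected on all 4 arrays. With so few arrays the precision is limited throughout. The only error that could be measured was technical, over genes with 2 detected probes. The SD of the difference between the log2 ratios of the 2 probes was divided by the square root of 2. The resulting single-probe SD was 0.26 for each wound comparison, 0.21 for the genotypes in unwounded skin and 0.18 in punched skin. Among members the same SD was 0.21, 0.25, 0.21 and 0.12 in that order. Differences between 2 probes of a gene spread more widely than these single-probe values.

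Of the 60 members, 28 were detected on all 4 arrays, 9 on some of them and 23 on none. Ligands were detected on at least 1 array for 27 of 38 genes and receptors for 10 of 22. By array, 32 members were detected in WT, 29 in BLT2KO, 36 in WT_punched and 36 in BLT2KO_punched skin. The share of all named genes detected moved less, from 51.4% in WT to 53.7% in BLT2KO_punched skin, against 53.3% and 48.3% of members in WT and BLT2KO skin and 36 of 60 on each punched array. Members with no detected probe were the ligands Ccl1, Ccl17, Ccl20, Ccl22, Ccl26, Ccl28, Cxcl3, Cxcl11, Cxcl15, Cxcl17 and Xcl1 and the receptors Ccr1, Ccr1l1, Ccr3, Ccr4, Ccr6, Ccr7, Ccr8, Ccr9, Ccr10, Cxcr6, Xcr1 and Ackr3. Cxcl5 has no probe named here and was not analysed.

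The ligands of CXCR2, the main neutrophil-attracting receptor, included Cxcl2, which had the largest member ratio for the wound in BLT2KO and between unwounded genotypes, and Ppbp, which had the largest for the wound in WT. Cxcl2, made by macrophages, neutrophils and mast cells, had a log2 level of 9.88 in WT, 7.30 in BLT2KO, 10.84 in WT_punched and 11.41 in BLT2KO_punched skin. Unwounded BLT2KO skin stood alone at the low end and BLT2KO_punched skin at the top. Cxcl1, made by keratinocytes and stromal cells, was at 9.20 in WT, 6.95 in BLT2KO, 10.44 in WT_punched and 9.75 in BLT2KO_punched skin. It shared the low value in unwounded BLT2KO skin, but its highest level was in WT_punched skin. Ppbp, the platelet basic protein precursor, was not detected in unwounded skin of either genotype (4.43 in WT and 4.71 in BLT2KO) and was at 7.48 in WT_punched and 7.74 in BLT2KO_punched skin. A second Ppbp probe was also not detected before punching, at 5.10 in WT and 4.53 in BLT2KO, the reverse order of the first probe. After punching it was at 6.80 in WT_punched and 7.08 in BLT2KO_punched skin. Cxcl3 lay near the background on all arrays, between 4.32 and 4.81, and Cxcl15 between 4.30 and 4.48.

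The promoters of Cxcl1, Cxcl2 and Cxcl3 are shown because Cxcl1 and Cxcl2 shared the low level in unwounded BLT2KO skin and Cxcl3, their neighbour on chromosome 5, was not detected. The sequences are the 160 bases before the transcription start from RefSeq, build GRCm38.p6, with matches to the NF-kB consensus on either strand in capitals. Promoters of Cxcl10, a CXCR3 ligand, and of Ccl3, a CC chemokine described below, are shown for comparison. The windows are chr5:90891085-90891244 on the plus strand for Cxcl1, chr5:90903739-90903898 (plus) for Cxcl2, chr5:90785941-90786100 (plus) for Cxcl3, chr5:92348890-92349049 (minus) for Cxcl10 and chr11:83649379-83649538 (minus) for Ccl3.
Cxcl1: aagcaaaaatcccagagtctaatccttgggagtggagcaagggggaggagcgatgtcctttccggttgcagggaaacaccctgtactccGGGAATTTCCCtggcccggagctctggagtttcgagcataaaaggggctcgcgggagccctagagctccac
Cxcl2: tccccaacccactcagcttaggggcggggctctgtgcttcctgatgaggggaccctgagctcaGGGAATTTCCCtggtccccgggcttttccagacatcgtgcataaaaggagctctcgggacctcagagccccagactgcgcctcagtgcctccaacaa
Cxcl3: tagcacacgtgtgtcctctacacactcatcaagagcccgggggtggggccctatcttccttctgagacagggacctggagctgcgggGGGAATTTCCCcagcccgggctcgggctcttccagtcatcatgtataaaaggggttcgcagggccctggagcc
Cxcl10: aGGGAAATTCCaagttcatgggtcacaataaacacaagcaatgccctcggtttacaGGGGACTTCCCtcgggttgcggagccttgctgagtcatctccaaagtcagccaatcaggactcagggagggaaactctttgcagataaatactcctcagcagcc
Ccl3: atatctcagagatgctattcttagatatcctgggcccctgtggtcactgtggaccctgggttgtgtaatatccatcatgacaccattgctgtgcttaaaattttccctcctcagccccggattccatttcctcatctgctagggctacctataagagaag

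Cxcl1, Cxcl2 and Cxcl3 held the same run of letters, which carries 2 overlapping matches to the consensus, at 71 to 61 bases before the start in Cxcl1, 97 to 87 in Cxcl2 and 73 to 63 in Cxcl3. The consensus was found within 250 bases before the start of 2225 of 27025 genes in the table (8.23%), and of 11 of the 46 members with a promoter there (23.9%). The exact letters GGGAATTTCC were taken from the first match in Cxcl1, so Cxcl1 held them by construction. Searched on both strands, they were present in 28 of 27025 genes (0.104%), of which 4 were members: Cxcl1, Cxcl2, Cxcl3 and Ccr3. Because the letters came from a member, no conclusion is drawn from this count. Of the 15 members at least 2-fold higher after punching in a genotype, 12 had a promoter in the table, and 3 of these held the consensus: Ccl9, Cxcl1 and Cxcl2. A match is a description of letters, and binding was not measured. Cxcl3 carried the same letters and was not detected, and Ccl3 had no match in this window.

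Among the CC chemokines of myeloid and T cells and the eosinophil attractants, Ccl3 and Ccl4 shared the low value in unwounded BLT2KO skin. Ccl3, a macrophage and neutrophil product that binds CCR1, had log2 levels of 9.32 in WT, 6.89 in BLT2KO, 10.43 in WT_punched and 10.67 in BLT2KO_punched skin. Ccl4, a macrophage product encoded next to Ccl3, was at 11.72 in WT, 9.39 in BLT2KO, 13.40 in WT_punched and 13.33 in BLT2KO_punched skin. Both were lowest in unwounded BLT2KO skin, and their levels on the punched arrays differed between genotypes by 0.24 and -0.07 on the log2 scale. Ccl6 and Ccl9, myeloid CCR1 ligands, did not share that pattern to the same degree. Ccl6 was at 8.52 in WT, 7.86 in BLT2KO, 9.03 in WT_punched and 8.97 in BLT2KO_punched skin. Ccl9 had equal unwounded levels of 10.99 in WT and 10.99 in BLT2KO and reached 12.43 in WT_punched and 11.94 in BLT2KO_punched skin. Ccl5, a T cell and platelet product, was not detected in WT (5.03), barely so in BLT2KO (5.26), and was at 6.37 in WT_punched and 6.25 in BLT2KO_punched skin. The eosinophil attractant Ccl11 ranged only from 8.21 in WT to 8.86 in WT_punched skin, and Ccl24, another eosinophil attractant, from 5.09 to 5.70.

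Ligands of CCR2, the receptor that draws inflammatory monocytes, were likewise lowest in unwounded BLT2KO skin. Ccl7 was at 8.99 in WT, 7.39 in BLT2KO, 9.96 in WT_punched and 9.55 in BLT2KO_punched skin. Ccl12 was at 7.99 in WT, 6.97 in BLT2KO, 8.003 in WT_punched and 7.71 in BLT2KO_punched skin. So Ccl12 was nearly the same in WT and WT_punched skin, whereas Ccl7 was higher after punching in each genotype. Ccl2 was not detected in BLT2KO skin (4.76) and was at 5.84 in WT, 6.42 in WT_punched and 6.05 in BLT2KO_punched skin. Ccl8, a CCR8 ligand in mice encoded in the same cluster of chromosome 11, stayed between 11.46 and 11.85 on the 4 arrays.

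Leukocyte receptors detected in punched skin of both genotypes had unwounded levels between 4.52 and 6.34. The neutrophil receptor Cxcr2 was at 6.24 in WT, 5.44 in BLT2KO, 7.94 in WT_punched and 7.50 in BLT2KO_punched skin. Its neighbour Cxcr1 was at 6.34 in WT, not detected in BLT2KO (4.88), and at 7.93 in WT_punched and 7.60 in BLT2KO_punched skin. Both receptors were therefore higher on each punched array than on each unwounded array. The monocyte receptor Ccr2 was not detected in unwounded skin (5.13 in WT and 4.52 in BLT2KO) and was at 6.86 in WT_punched and 6.50 in BLT2KO_punched skin. Cx3cr1, the fractalkine receptor of monocytes and macrophages, was at 5.47 in WT, 5.32 in BLT2KO, 6.45 in WT_punched and 6.58 in BLT2KO_punched skin. Cxcr4, the CXCL12 receptor of many leukocytes, was at 6.34 in WT, 6.32 in BLT2KO, 7.36 in WT_punched and 7.59 in BLT2KO_punched skin. Unlike Cxcr1 and Cxcr2, these last 2 receptors had nearly the same unwounded level in both genotypes. Cxcr3, the T cell receptor for Cxcl9 and Cxcl10, was detected on the WT (5.25) and WT_punched (5.53) arrays only, and Cxcr5, the CXCL13 receptor of B cells, in BLT2KO_punched skin only (5.12). The calls for Cxcr3 in WT and for Cxcr5 lay close to the limit, each with a detection p-value of 0.0085. Cxcr3 in BLT2KO skin had a detection p-value of 0.0192, and the other Cxcr5 probes were detected on no array.

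**Figure D1:**
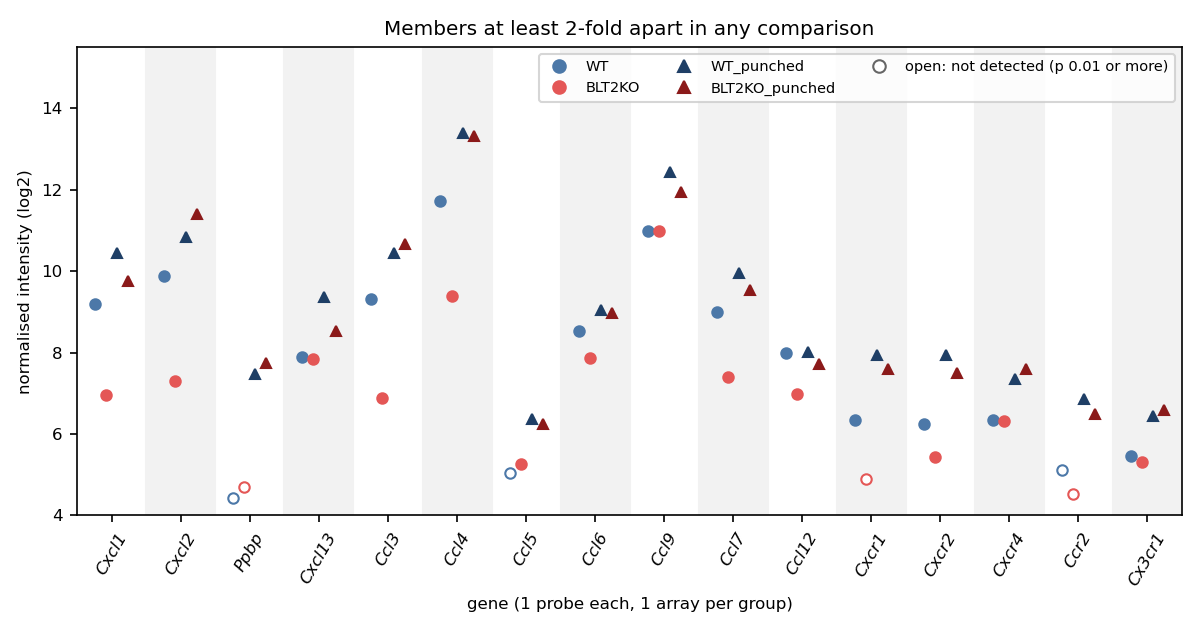
Normalised log2 intensity of the 16 members that were at least 2-fold apart in any comparison, 1 probe per gene and 1 array per group, with open symbols for probes not detected. All but Ccl5 and Ppbp have their lowest point in unwounded BLT2KO skin. This point is farthest below the WT point for Cxcl1, Cxcl2, Ccl3, Ccl4 and Ccl7. It is close to the WT point for Ccl9, Cxcl13, Cxcr4 and Cx3cr1. The triangles (punched) are farthest apart for Cxcl13, by 0.82.

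Among the other ligands, Cxcl13, the B cell attractant, was at 7.90 in WT, 7.85 in BLT2KO, 9.36 in WT_punched and 8.53 in BLT2KO_punched skin. Cxcl14, an epithelial and stromal chemokine, was at 9.70 in WT, 9.79 in BLT2KO, 10.50 in WT_punched and 10.71 in BLT2KO_punched skin. Its wound log2 ratios of 0.80 in WT and 0.92 in BLT2KO were 0.23 and 0.52 by a second probe. The interferon-induced CXCR3 ligand Cxcl9 was higher on both WT arrays (7.08 and 7.12) than on the BLT2KO (6.35) and BLT2KO_punched (6.55) arrays, and Cxcl10 was detected in punched skin only, at 5.97 in WT_punched and 5.53 in BLT2KO_punched skin. The keratinocyte chemokine Ccl27a was at 12.08 in WT and 12.08 in BLT2KO and at 11.41 and 11.68 after punching in the same order. Ccl21a and Ccl21c, the lymphatic CCR7 ligands, were also lower after punching in each genotype, with Ccl21c at 11.19 and 10.90 before and at 10.39 and 10.40 after. Ccl21a and Ccl21c are near-identical copies whose probes may not tell them apart. Ccl19, the other CCR7 ligand, was at 8.56 in WT, 8.88 in BLT2KO, 9.31 in WT_punched and 9.07 in BLT2KO_punched skin. The atypical receptor Ackr1 ranged from 9.003 to 9.39, Ackr2 from 6.73 to 7.50 and Ackr4 from 6.14 to 6.55, each lowest in BLT2KO_punched skin. Ackr4 fell more by other probes that were detected in unwounded skin but not on every punched array. Their wound log2 ratios, with undetected values as read, were -1.06 and -0.66 in WT and -0.85 and -1.10 in BLT2KO. Cxcl12 (10.05 to 10.52), Cxcl16 (8.98 to 9.66), Cx3cl1 (6.48 to 7.12), Pf4 (9.29 to 10.02) and Ccl25 (5.56 to 6.16) varied by less than 2-fold.

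The first comparison set WT_punched against WT skin and asked which members differed 2 days after a wound in wild-type mice. A ratio was formed for 36 members, those with a detected probe before or after punching. Of these, 11 were higher by 2-fold or more (30.6%) and 0 were lower by as much. Among all 10382 genes so measured, 1.94% were higher and 1.48% lower by that margin. The member median was 0.61 on the log2 scale, against 0.03 for all genes. A gene detected on only 1 array was given a bound, with the dim side raised to the lowest level among detected probes, and bounds enter these counts and medians at their value. Of the 32 members detected on both arrays, 8 were at least 2-fold higher.

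Those 11 genes comprised 7 ligands and 4 receptors. Ppbp was at least 4.77-fold higher by the normalization used, and its log2 ratio ran from 1.28 to 3.05 over the other settings and was 1.29 in the deposited processed values. The bound for Ccl5 was 2.21-fold, Ccl9 and Cxcl13 were 2.71-fold and 2.74-fold higher, and Cxcl1, Ccl3 and Ccl4 lay between 2.16-fold and 3.19-fold. The receptors were Cxcr2, Cxcr1 at 3.02-fold, Ccr2 as a bound, and Cxcr4 at 2.02-fold. Just under 2-fold were Cx3cr1 (1.97-fold), Ccl7 (1.96-fold) and Cxcl2. At the other end were Ccl21c, with a log2 ratio of -0.79, Ccl27a with -0.67 and Ccl21a with -0.45. In the deposited processed values, Ccl5, Ccr2 and Cxcr4 were under 2-fold, with log2 ratios of 0.58, 0.87 and 0.66. Averaged with second probes that were not detected, Ccr2 had a ratio of 0.36 and Cxcr2 one of 0.71.

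In BLT2KO skin the same wound comparison gave larger ratios for several inflammatory ligands. Of 36 measured members, 12 were higher by 2-fold or more (33.3%) and 0 lower, against 3.10% and 1.71% of the 10587 genes measured. The member median was 0.66 and that of all genes 0.0004. Of the 29 members detected on both arrays, 9 were at least 2-fold higher. Ccl7 was 4.46-fold, Cxcr2 4.19-fold, Cxcr4 2.42-fold, Cx3cr1 2.39-fold and Ccl6 2.16-fold higher, while the lower bounds were 5.29-fold for Cxcr1, 5.81-fold for Ppbp and 2.47-fold for Ccr2. The log2 ratios of Cxcl2, Ccl4, Ccl3 and Cxcl1 were 4.11, 3.94, 3.78 and 2.80. Ccl5 (1.99-fold) and Ccl9 (1.94-fold) lay just under 2-fold. Ackr2, the decoy receptor that clears inflammatory CC chemokines, had the lowest member ratio at -0.77, followed by Ccl25 with -0.55 and Ccl21c with -0.50. These bounds depend on the background step: in the deposited processed values the log2 ratios were 1.55 for Cxcr1 and 1.66 for Ppbp, and over all settings they ran from 1.38 to 2.72 and from 1.49 to 3.03. Cxcr2 ran from 1.04 to 2.21. The deposited processed values put Ccr2 (0.80), Cx3cr1 (0.79) and Cxcr4 (0.96) under 2-fold on the log2 scale, and the mean over probes put Ccr2 at 0.24.

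The 2 wound comparisons share no array. They had 8 members at least 2-fold higher in common, which is 72.7% of the WT list and 66.7% of the BLT2KO list: Ccl3, Ccl4, Cxcl1, Ppbp, Cxcr1, Cxcr2, Cxcr4 and Ccr2. Among all genes, 135 were shared, 67.2% of the WT list and 41.2% of the BLT2KO list, and these shares were not compared by a test. Ccl5, Ccl9 and Cxcl13 passed 2-fold in WT alone, and Ccl6, Ccl7, Cx3cr1 and Cxcl2 in BLT2KO alone. For Ccl5, Ccl9, Ccl7, Cx3cr1 and Cxcl2 the smaller ratio was 1.94-fold or more, so the lists differ there by little more than the threshold, although for Cxcl2 and Ccl7 the ratios themselves lay far apart. Across the 28 members detected on all arrays, the wound ratios correlated at r = 0.75 (rho = 0.85), as a description of genes read on the same arrays. In 21 of the 28 both ratios were above 0, as in 38.9% of all 9111 genes detected on all arrays.

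**Figure D2:**
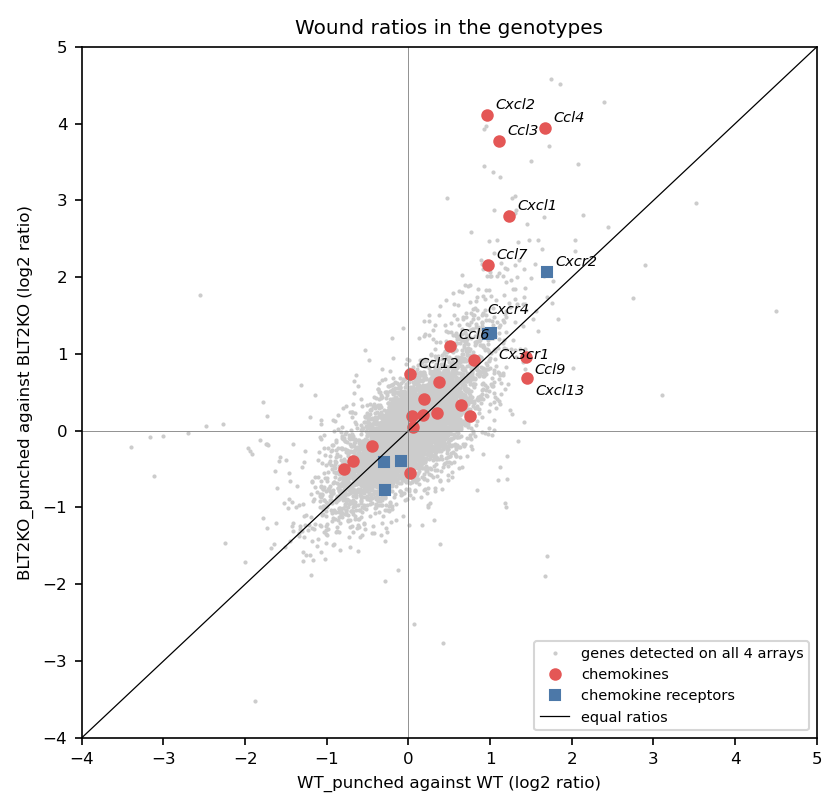
Log2 wound ratio in WT (horizontal) against BLT2KO (vertical) for the 28 members detected on all 4 arrays, over all 9111 such genes in grey. Cxcl2, Ccl3, Ccl4, Cxcl1 and Ccl7 lie above the line of equal ratios, and Cxcl13 and Ccl9 below it.

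Taking the difference of the wound ratios, 18 of the 28 members had the larger ratio in BLT2KO, against 49.5% of all genes, and 10 in WT, and the median difference was 0.24, against -0.0029 for all 9111 genes. The difference was at least 2-fold in favour of BLT2KO for 5 members (17.9%) and in favour of WT for 0, where 1.17% and 0.571% of all genes passed. The 5 were Cxcl2 (a log2 difference of 3.15), Ccl3 (2.67), Ccl4 (2.26), Cxcl1 (1.56) and Ccl7 (1.19). For Ccl7 the difference was just under 2-fold in the deposited processed values, at a log2 value of 0.996. Each of the 5 was a ligand, and the 6 receptors detected on all arrays had differences from -0.48 to 0.36. The receptor Cxcr1 is not among them because it was not detected in unwounded BLT2KO skin. Its wound log2 ratio was 1.60 in WT and at least 2.40 in BLT2KO, so the detection filter bears on this split of ligands and receptors. Larger ratios in WT were those of Cxcl13 (-0.77), Ccl25 (-0.57), Ccl19 (-0.56), Ccl9 (-0.48) and Ackr2 (-0.48). The single-probe SD was 0.25 for this quantity, and Cxcl13, Ccl19 and Ccl9 have 1 probe each on the array. No test of these differences was possible with 1 pool per group.

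The third comparison set BLT2KO against WT in unwounded skin. Of 33 measured members, 7 were lower in BLT2KO by 2-fold or more (21.2%) and 0 higher, where 1.17% and 1.08% of 10235 genes passed. The member median was -0.29 and that of all genes -0.01. Cxcl2, Ccl3, Ccl4 and Cxcl1 had log2 ratios of -2.58, -2.43, -2.34 and -2.25, and Ccl7 and Ccl12 were 3.03-fold and 2.02-fold lower. Cxcr1 was at least 2.20-fold lower. Cxcr2 was 1.75-fold, Cxcl9 1.66-fold, Ccl6 1.58-fold and Pf4 1.46-fold lower, and Ccl2 at least 1.56-fold. Ccl25, an epithelial CCR9 ligand, had the highest ratio at 0.60, while Ccl9, Ccl27a, Cxcr4, Ccl11, Cxcl13 and Ackr4 lay within 0.05 of 0. In the deposited processed values Ccl12 (-0.80) and Cxcr1 (-0.68) did not reach 2-fold. This comparison uses the same WT array as the first and the same BLT2KO array as the second, so a low value on the BLT2KO array enters both its ratio here and the wound ratio of BLT2KO skin.

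In punched skin, the genotypes differed less. Of 37 measured members, 0 were higher and 0 lower by 2-fold in BLT2KO_punched than in WT_punched skin, where 1.08% and 0.541% of 10540 genes passed, so a count of 0 is close to what these shares give for 37 genes. The ratios ran from -0.82 for Cxcl13 and -0.69 for Cxcl1 to 0.57 for Cxcl2, and the median was -0.25, against -0.03 for all genes. Of the 28 members detected on all arrays, 19 had a ratio below 0 in punched skin and 21 in unwounded skin, where 55.6% and 52.9% of all 9111 such genes were below 0. Cxcl9 (1.49-fold lower), Ccl9 (1.41-fold lower) and Cxcr2 (1.36-fold lower) followed Cxcl13 and Cxcl1. Above 0 were Cxcl2, Ccl27a (0.27), Ppbp (0.26), Ccl3 (0.24), Cxcr4 (0.23) and Cxcl14 (0.21). A second Cxcl14 probe gave the other sign, at -0.07. For Cxcl9 (-0.73 and -0.57) and Ccl8 (-0.33 and -0.34) the genotype ratio was alike in both wound states, whereas for Ccl3, Cxcl2 and Ccl19, among others, it changed sign. The size of several of these ratios lies within the single-probe SD of 0.18.

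**Figure D3:**
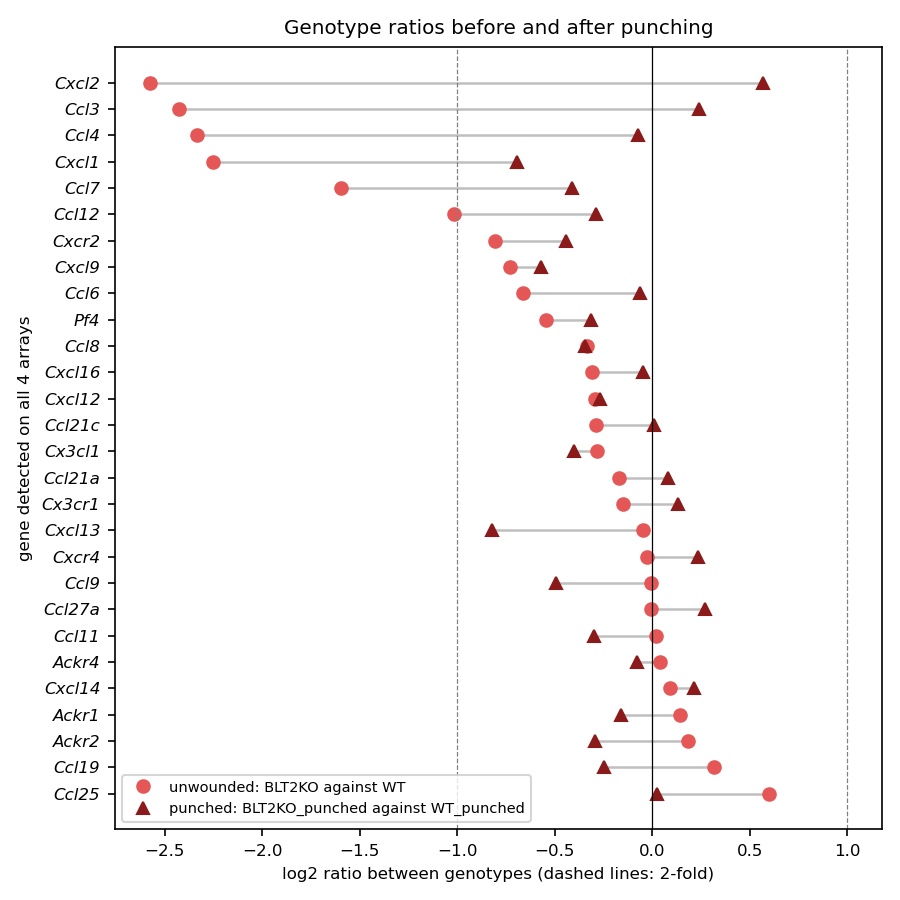
Log2 ratio of BLT2KO to WT for the 28 members detected on all 4 arrays, in unwounded (circles) and punched skin (triangles), with dashed lines at 2-fold. Circles reach -2.58 for Cxcl2, and the triangles lie between -0.82 and 0.57.

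Second probes bore on the size of these ratios. For 10 members, another probe was also detected on all 4 arrays, giving 11 pairs and 44 ratios. The reported probe was at 2-fold or more in 8 of the 44, and the other probe had the same direction in 8 and passed 2-fold in 7. For Cxcl2 the other probe gave 0.33 for the wound in WT and 3.47 in BLT2KO, -2.75 for the genotype in unwounded skin and 0.40 in punched skin. For Ccl4 it gave 1.33, 3.81, -2.50 and -0.02, and for Ccl7 0.58, 1.57, -1.34 and -0.34 in the same order. The low unwounded BLT2KO level was thus seen with both probes of all 3 genes. The probes of Cxcl2 disagreed by over 0.6 in each wound comparison, so its wound ratio in WT was 0.96 by one probe and 0.33 by the other.

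**Figure D4:**
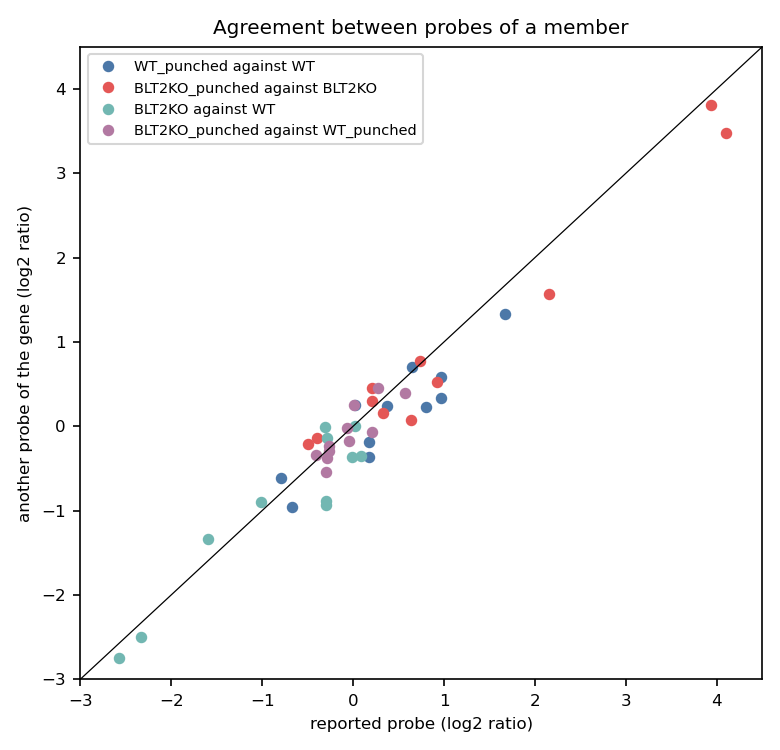
Log2 ratio of the reported probe (horizontal) against another probe of the same member (vertical) for 11 pairs of probes detected on all 4 arrays, in the 4 comparisons. Points follow the line of equal ratios to within 0.64.

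Cell type markers were read beside the chemokines, since in skin RNA fewer cells of a type and less RNA per cell cannot be told apart. Of 12 neutrophil markers on the array, 6 were detected in WT, 5 in BLT2KO, 8 in WT_punched and 7 in BLT2KO_punched skin, and their summed intensity was 13836, 4693, 25442 and 22489 in that order. S100a8, S100a9, Csf3r, Retnlg and Clec4d were detected on every array, while the granule genes Mpo, Camp, Ngp and Mmp8 were detected on none. The median neutrophil ratio was 0.90 for the wound in WT, 2.49 in BLT2KO, -1.76 for the genotype in unwounded skin and -0.15 in punched skin. Neutrophil markers thus had the same order of arrays as Cxcr1 and Cxcr2. Of 12 monocyte and macrophage markers, 12 were measured in each comparison, with medians of 0.42, 0.82, -0.38 and -0.23 and summed intensities of 16239 in WT, 10906 in BLT2KO, 22558 in WT_punched and 20984 in BLT2KO_punched skin. T and NK cell markers were detected for 3 or 4 of 9 genes, with summed intensities from 286 to 381. The summed intensity of endothelial markers ran from 1219 to 1497, of mast cell markers from 2302 to 3091 and of Langerhans and dendritic cell markers from 12456 to 16709. These sums weigh bright genes most. Within them, Cd207 was 2.20-fold lower after punching in WT and 2.33-fold lower in BLT2KO. Lyve1 was 2.10-fold and 3.00-fold lower in the same order, and the mast cell gene Fcer1a was 2.05-fold higher in WT. Of 7 platelet markers 2 or 3 were detected, and their summed intensity was 185 in WT, 296 in BLT2KO, 190 in WT_punched and 207 in BLT2KO_punched skin. Among them Gp9 was detected on both BLT2KO arrays only, and was 2.23-fold lower after punching there. Of 10 keratinocyte markers 8 to 10 were detected per array, and the list's median ratio was -0.22 for the wound in WT, -0.53 in BLT2KO, 0.20 for the genotype in unwounded and -0.03 in punched skin. In BLT2KO, Krt2 was 2.81-fold lower after punching, and Krt1 was 2.02-fold higher than in WT before it. The 6 fibroblast markers had medians of -0.40, -0.53, 0.32 and 0.16, with Col1a2 2.38-fold lower after punching in BLT2KO. The part of cell content in the member ratios was not tested.

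Some skeletal muscle markers, but not the list as a whole, set the WT_punched array apart. Of 13 measured there, 5 were at least 2-fold higher than in WT and 1 was lower, Myh1 (4.75-fold). Acta1, Ckm, Myh4, Tnnt3, Tnni2, Mylpf and Myl1 had log2 ratios between -0.40 and 0.33. In BLT2KO_punched skin 4 were at least 2-fold lower than in WT_punched skin. The troponins Tnnc1 and Tnnt1 were 22.7-fold and 8.60-fold higher in WT_punched than in WT skin, and the slow myosin light chain Myl2 at least 31.4-fold. In BLT2KO wounds 2 of 12 were higher, Tnnc1 (2.95-fold) and Actc1 (3.31-fold), and 1 was lower. The summed intensity of the list ran from 66990 to 77146, and its part in the member ratios was not tested.

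Hair shaft and inner root sheath genes, which mark the growing hair follicle, also separated the arrays. Their summed intensity over 12 genes was 8950 in WT, 64864 in BLT2KO, 1702 in WT_punched and 64040 in BLT2KO_punched skin. Both BLT2KO arrays were thus far above both WT arrays in these genes, and their part in the member ratios was not tested. With 1 pool per group, hair gene level and genotype cannot be told apart for any gene.

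Genes around the chemokines were counted from lists chosen by function. Of 28 signalling genes downstream of chemokine receptors on the array, 22 were measured in WT wounds, 4 of them at least 2-fold higher and 0 lower, with a median of 0.46. In BLT2KO wounds 7 of 22 were at least 2-fold higher and 0 lower, with a median of 0.52. These included the exchange factor Vav1 (2.46-fold in WT and 3.28-fold in BLT2KO), the haematopoietic GTPase Rac2 (2.35-fold and 3.17-fold) and beta-arrestin 2, Arrb2 (1.91-fold and 2.98-fold). In unwounded BLT2KO skin 0 of 20 passed 2-fold and the median was -0.38, with Pik3cd 1.76-fold and Arrb2 1.78-fold lower, and in punched skin 0 of 23 passed with a median of -0.16. Of 6 relatives of the family outside the name rule, 1 was at least 2-fold higher in WT wounds and 3 in BLT2KO wounds, and 2 were lower in unwounded BLT2KO skin, Gpr35 and Rarres2. Ccrl2, an atypical chemerin-binding relative of the chemokine receptors, was 1.88-fold and 2.14-fold higher after punching, and Gpr35 2.07-fold and 4.97-fold. Rarres2, which encodes chemerin, was 2.49-fold lower in unwounded BLT2KO than WT skin.

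Among other chemoattractant receptors, 4 of 9 on the array were measured in WT wounds and 1 was at least 2-fold higher, Fpr2. In BLT2KO wounds it was 2 of 3, Fpr2 and Ltb4r1, and both were lower in unwounded BLT2KO skin. Ltb4r1, which encodes the leukotriene B4 receptor BLT1, was 14.2-fold lower in unwounded and 6.02-fold lower in punched BLT2KO skin than in WT skin of the same state. The formyl peptide receptor Fpr2 had log2 levels of 8.99 in WT, 7.08 in BLT2KO, 10.50 in WT_punched and 10.60 in BLT2KO_punched skin, the order also seen for Ccl3. Of 16 measured cytokines, sensors and transcription factors that induce chemokines, 2 were at least 2-fold higher in WT wounds, Osm and Irf7. In BLT2KO wounds Osm, Il1b, Tnf, Irf7 and Tlr2 were higher, 5 in all, and Il1a was lower. In unwounded BLT2KO skin 3 of 16 were at least 2-fold lower, Il1b, Osm and Tnf, and in punched skin 0 of 16 passed. Tnf was at 7.25 in WT, 5.65 in BLT2KO, 7.90 in WT_punched and 7.68 in BLT2KO_punched skin. Il1b and Tnf thus shared the low value on the unwounded BLT2KO array with Cxcl1, Cxcl2, Ccl3 and Ccl4. The NF-kB subunit Rela was between 10.17 and 10.48 and Tlr4 between 7.03 and 7.34. Between unwounded genotypes the median log2 ratio of the 16 was -0.34, and 3 of them were above 0. Tlr2 had a ratio of -0.93, Nfkbia -0.64, Rela -0.23 and Tlr4 0.008. NF-kB activity was not measured.

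**Figure D5:**
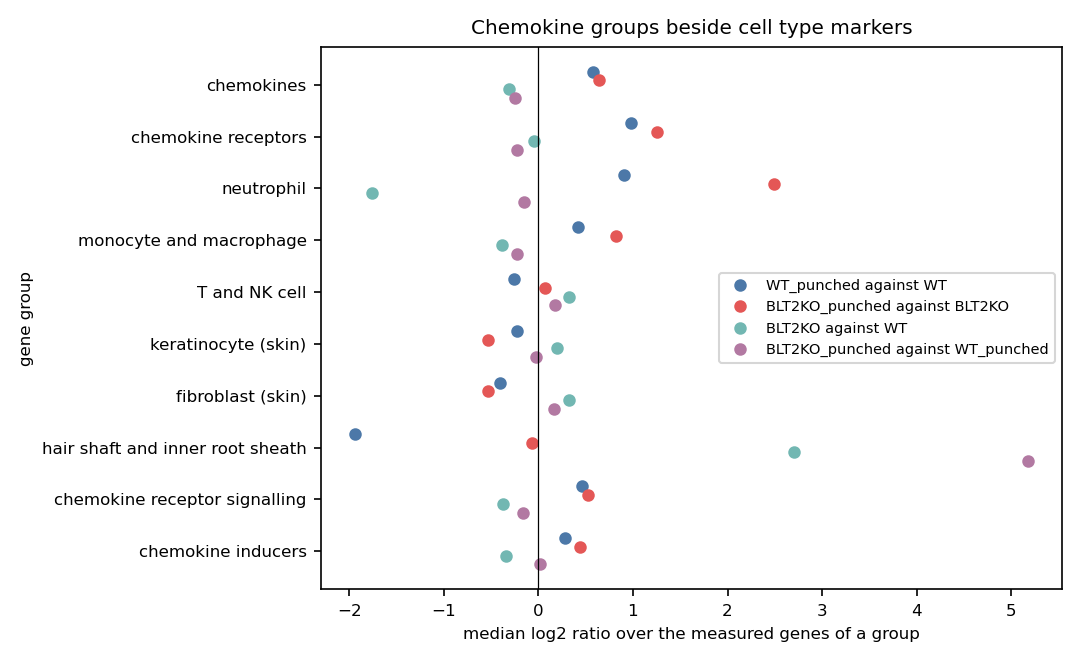
Median log2 ratio of the measured genes of each group in the 4 comparisons, with bounds at their value. Neutrophil markers lie at 2.49 for the wound in BLT2KO and -1.76 for the genotype in unwounded skin, and hair genes at 2.71 and 5.18 in the genotype comparisons.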

How the data were processed

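Per the labels' protocols, RNA of 3 mice per group was mixed, amplified, biotin-labelled and hybridised to Illumina MouseWG-6 BeadChips, and exported with BeadStudio. The authors deposited an intensity per probe without normalization and, per the file headers, a detection p-value, for 45281 probes on 4 arrays. A second deposited table held intensity values equal to the first times 1 factor per array, which set each mean to 348.

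Here, neqc of limma 3.58.1 (R 4.3.3) gave the values used: normexp background from the detection p-values, an offset of 16, quantile normalization and log2. Ratios ran in Python 3.11.15 with pandas 2.3.3. Steps were tested on simulated data. Platform annotation named 34885 probes with 1 gene, and 18 had several. The probe with the highest mean stood for a gene. A gene entered a comparison if either of its arrays detected it, and an undetected side was raised to the lowest level among detected probes of that array. Genes were counted at 2-fold or more. With 1 array per group nothing was tested and no p-value between groups is given. Members, lists and the rule for named genes (each member past 2-fold in a comparison, the brightest members, and up to 3 leading genes of each pathway list) were chosen with earlier results of these data known. Named beyond the rule, after their values were seen, were members near 2-fold, near 0 or at the range ends, Cxcl3 and several list genes. The 8 alternatives covered the scaling, background, offset, detection filter and probe choice.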

Additional observations from a re-analysis of the deposited data

Results flagged for a closer look

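For 3 members the genotype ratio pointed in opposite directions before and after punching, each by more than the single-probe SD (0.21 in unwounded and 0.18 in punched skin). The largest disagreement between probes of a member in punched skin, 0.28, exceeds the punched ratios of Ccl3 and Ccl19. With 1 array per group these differences were not tested. Cxcl2 had a log2 ratio of BLT2KO to WT of -2.58 in unwounded and 0.57 in punched skin, and its second probe gave -2.75 and 0.40. Ccl3 had ratios of -2.43 and 0.24. Ccl19, a CCR7 ligand of lymphoid and stromal cells, ran the other way, with 0.32 in unwounded and -0.25 in punched skin. Ccl3 and Ccl19 were each read by 1 probe.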

How the results depend on the processing

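No paired analysis was possible because each group holds 1 array, and no replicate could be left out. Under the 8 other settings, the count of members at least 2-fold lower stayed at 0 in both wound comparisons and the count at least 2-fold higher stayed at 0 in both genotype comparisons. Members at least 2-fold higher numbered 8 to 16 in WT wounds (11 as reported) and 8 to 15 in BLT2KO wounds (12), and members lower in unwounded BLT2KO skin 5 to 8 (7). The difference of wound ratios passed 2-fold in 4 to 6 members (5). Without the detection filter, where all 60 members count, the median was 0.18 for the wound in WT and 0.22 in BLT2KO. Of the ratios of named members past 2-fold, 0 changed direction, and 75 of 85 values in WT wounds, 82 of 93 in BLT2KO wounds, 47 of 55 in unwounded skin and 33 of 35 differences stayed past 2-fold. Part of these counts was fixed in advance. Settings that changed only the detection filter return the reported ratio for any member detected on both arrays. The mean over probes does the same for a member with a single probe. Median scaling moved the median of all genes to 0.25 in WT wounds, 0.16 in BLT2KO wounds and 0.12 between unwounded genotypes, against member medians of 0.80, 0.88 and -0.13. It gave 399 higher and 85 lower genes in WT wounds, where 201 and 154 were reported, and 449 and 107 in BLT2KO wounds, where 328 and 181 were reported. The deposited processed values gave 85 and 49, and 220 and 48, in the same order. Between unwounded genotypes, 111 higher and 120 lower genes became 131 and 82 with median scaling and 77 and 59 without background correction. In punched skin 114 and 57 became 80 and 31 without background correction. Signal near background limits Ccl5, Ccr2, Cx3cr1, Cxcr1, Cxcr2 and Ppbp.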

Other observations

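Probes of Cxcl12, the fibroblast and endothelial ligand of CXCR4, did not agree in unwounded skin. The reported probe gave a log2 ratio of BLT2KO to WT of -0.29, and the other detected probes gave -0.89 and -0.93. In punched skin the same probes gave -0.27, -0.23 and -0.29. Which transcripts each probe reads is not known here.

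By position, 14 members lie on chromosome 11 and 12 on chromosome 5. On chromosome 11, 11 were measured between unwounded genotypes, 4 of them at least 2-fold lower in BLT2KO, with a median log2 ratio of -0.65. On chromosome 5, 6 were measured and 2 were at least 2-fold lower, with a median of -0.64. On chromosome 1, 4 were measured and 1 was at least 2-fold lower, with a median of -0.42. Over all chromosomes, 1.17% of 10235 genes were lower by that margin, and the share per chromosome was not counted. On chromosome 4, which holds Ccl19, Ccl21a, Ccl21c and Ccl27a, 0 of 4 passed 2-fold in either direction and the median was -0.09.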
